A study of Mus musculus with 3 samples.

Results

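Arterial endothelial cells (ECs) were examined in single-cell RNA sequencing of the mouse retina at postnatal day 6. A cell was taken as arterial when it passed an endothelial gate, carried few transcripts of 3 microglial genes and of 3 cycling genes, and expressed the arterial markers *Bmx*, *Gja5*, *Sema3g*, *Dkk2*, *Stmn2* and *Tmem100* at a summed level of at least 5 unique molecular identifiers (UMIs) per 10,000, with at least 2 of the 6 detected. This rule selected 263 cells of the 29084 cells that passed quality limits, or of 3201 ECs, with 32 in the wild-type (WT) library, 12 in the *Tspan12* knockout (*Tspan12* KO) library and 219 in the *Ctnnb1* conditional knockout (*Ctnnb1* cKO) library. All mice were at postnatal day 6 on a C57BL/6 background, and each of the 3 genotypes was represented by 1 library made from the pooled retinas of one litter. The *Tspan12* KO mice lacked, in all cells, a co-receptor of the Norrin receptor complex, while the *Ctnnb1* cKO mice carried floxed *Ctnnb1* alleles (encoding β-catenin) recombined in ECs by tamoxifen, given on consecutive days from the first postnatal day, through the *Pdgfb*-iCreER driver. The WT mice came from other litters than the mutants, and whether they or the *Tspan12* KO mice received tamoxifen was not given in the sources used here. Cells had been enriched with magnetic beads for vascular cells (CD31) and myeloid cells (CD11b) and sequenced with 10x Genomics 3′ chemistry. The other 2117 non-cycling ECs of the same libraries (364, 275 and 1478) served as the comparison.

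Retinal arteries carry blood from the optic nerve head outward, and their endothelium is set apart from that of veins by Notch signalling, high shear stress and a wall with smooth muscle and elastic fibres. Arterial ECs typically express gap junction proteins (*Gja4*, *Gja5*), the ephrin ligand *Efnb2*, the Notch targets *Hey1* and *Hey2* and the transcription factor *Sox17*, cycle little, and arise in part from tip cells of the growing front. Norrin, its receptor Frizzled-4 and the co-receptors LRP5 and TSPAN12 act through β-catenin to drive vessel growth and to maintain the blood-retina barrier.

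Because each genotype was 1 library, genotype, litter, pool and library could not be told apart, no test between genotypes was possible, and all 95% intervals below cover counting error alone. The arterial cells summed to 902980 UMIs in WT, 157502 in *Tspan12* KO cells and 861961 in *Ctnnb1* cKO. Their median depth was 15078.5, 4583 and 3059 UMIs per cell, so the *Ctnnb1* cKO cells were the shallowest. The deepest single cell gave 11.8%, 26.3% and 2.72% of all arterial UMIs. In *Tspan12* KO the cells of 41484, 33299, 27977 and 26299 UMIs held most of the sum. The deepest WT cells held 106463, 93471, 89792, 81746 and 70929 UMIs, and all but the last had summed markers below the WT median of 14.2 per 10,000. Summed levels in WT and *Tspan12* KO thus weigh a few deep cells most. The median mitochondrial share was 3.22%, 2.80% and 0.454%. Pairs of libraries shared 21 to 37 barcodes, and 3 arterial cells, all of *Ctnnb1* cKO, carried a barcode also found in another library. Without the cells of shared barcodes 803 genes, in place of 793, were 2-fold different between *Ctnnb1* cKO and WT arterial cells. Doublets were not removed from the main set. Levels are given as CPM, the UMIs of a gene per 1000000 UMIs of all cells of a class in a library. *Xist*, a transcript of female cells, was at 98.6, 997 and 278 CPM in arterial cells and the Y-linked *Ddx3y* at 68.7, 0 and 37.1 CPM, so the mix of sexes differed between the libraries, and its part in the differences between libraries was not tested.

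The 6 rule markers describe how the members were chosen and support nothing by themselves. *Sema3g*, a semaphorin of arterial endothelium, was detected in 28 of 32 members in WT, 7 of 12 in *Tspan12* KO cells and 132 of 219 in *Ctnnb1* cKO. *Bmx*, an arterial tyrosine kinase, was detected in 26, 6 and 126 members, and the connexin gene *Gja5* in 15, 4 and 66. *Gja5* was thus the least often detected marker in each library. *Stmn2* is also a neuronal gene, and it was found in 28, 7 and 138 members. In non-endothelial cells of the enriched retina a UMI of *Stmn2* was present in 15.4%, 12.6% and 7.32% of cells, whereas *Bmx* was present in 0.307%, 0.0536% and 1.59%.

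**Figure D1:**
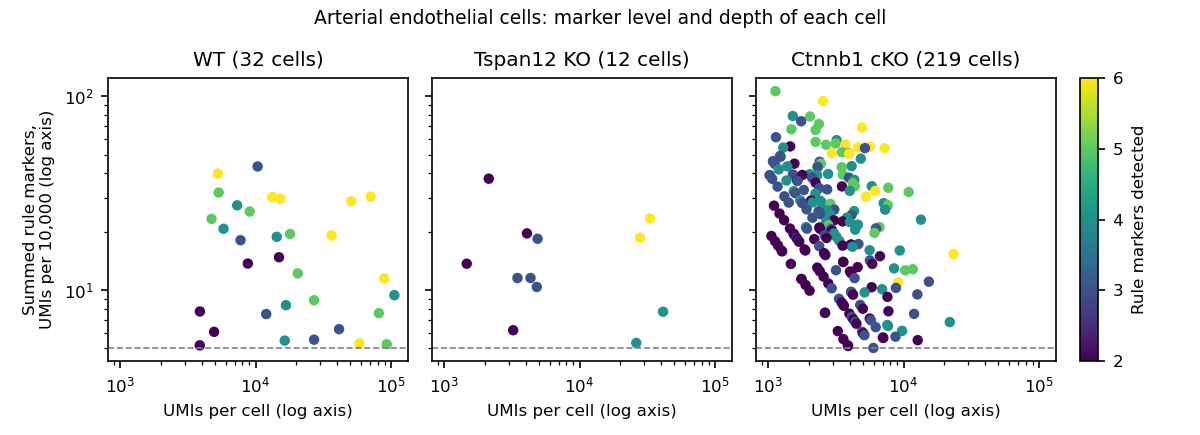
Each point is 1 arterial EC, with its UMIs on the x axis (log axis) and the summed 6 rule markers per 10,000 UMIs on the y axis (log axis), coloured by the number of markers detected, and the dashed line is the limit of 5. Most *Ctnnb1* cKO cells lie at fewer UMIs than the WT cells, and the diagonal rows in that panel are cells with the same small number of marker UMIs.

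The summed marker level of the members had a median of 14.2 per 10,000 in WT, 12.6 in *Tspan12* KO cells and 21.0 in *Ctnnb1* cKO, with highest values of 43.4, 37.6 and 106. All 6 markers were detected together in 8, 2 and 12 members, and exactly 2 in 5, 4 and 73. The limit ran through a continuous range. Just inside it (5 to 7 per 10,000) lay 7, 2 and 21 cells and just outside (3 to 5 per 10,000, with at least 2 markers) 5, 7 and 35. The gap junction gene *Gja4* stood at 537, 1761 and 395 CPM in the cells just inside and at 1053, 333 and 274 CPM just outside, while ECs with no rule marker held 72.6, 53.0 and 37.5 CPM. The ECs just outside the limit therefore also held *Gja4* above the ECs without markers.

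Arterial cells made up 8.08% (5.59 to 11.2) of non-cycling ECs in WT, 4.18% (2.18 to 7.19) in *Tspan12* KO cells and 12.9% (11.3 to 14.6) in *Ctnnb1* cKO, with exact Clopper-Pearson intervals. The share was lowest in *Tspan12* KO, highest in *Ctnnb1* cKO, and the WT interval overlapped that of *Tspan12* KO. Since the rule asks for detected markers and depths differed, the shares were also taken after every cell had been thinned at random to 2000 UMIs. They were then 4.89% (2.87 to 7.71), 3.86% (1.78 to 7.21) and 9.52% (7.71 to 11.6), in the same order, with WT and *Tspan12* KO close to each other. Thinning left out 10, 27 and 383 ECs with too few UMIs and kept 16 of 32, 6 of 11 and 84 of 163 of the remaining members.

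Few cells past the arterial limits cycled. Of ECs with the arterial markers, 2 of 34 in WT, 1 of 13 in *Tspan12* KO cells and 37 of 256 in *Ctnnb1* cKO had *Top2a*, *Mki67* and *Cenpf* at 3 or more per 10,000 and were left out of the members. Among ECs without them the share was 35.2% (31.3 to 39.3), 29.1% (24.6 to 33.9) and 24.1% (22.2 to 26.1). In thinned cells the arterial shares were 10.5%, 10% and 14.4%, against 33.4%, 30.2% and 24.3% in other ECs. The arterial share was the lower one in every library, and the intervals stood apart in WT and *Ctnnb1* cKO before thinning. A gate of tip cell genes (*Esm1*, *Apln*, *Angpt2*, *Kcne3*, *Pgf* and *Plaur*), which mark the leading cells of sprouts, was passed by 1, 0 and 2 members, while 10.2%, 10.9% and 9.27% of the other non-cycling ECs passed it.

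The label was checked against arterial genes that the rule did not use. Of 20 such genes, 15, 16 and 16 had at least 50 UMIs over arterial and other ECs of the WT, *Tspan12* KO and *Ctnnb1* cKO libraries, and 13, 13 and 14 of these were at least 2-fold higher in arterial cells, on the log2 scale of CPM plus 5. None was 2-fold lower, and the median log2 ratio was 2.74, 2.96 and 2.25. Over all genes with enough UMIs, 3.04%, 6.3% and 2.32% were 2-fold higher in arterial cells and 3.46%, 12.9% and 2.07% lower, with medians near 0. Cells were split by measured genes that vary together with these, so the counts are a description of what the rule collected. *Cytl1* had no UMI in any non-cycling EC, and the Notch target *Hey2* had 5, 0 and 12 UMIs in arterial cells of the 3 libraries. By these genes the label of arterial ECs fits the cells of all 3 libraries.

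*Gja4*, which encodes connexin 37 of arterial gap junctions, was at 1517 CPM in the WT library, 1638 in that of *Tspan12* KO and 687 in that of *Ctnnb1* cKO for arterial cells, against 165, 120.4 and 66.2 CPM in other ECs. The log2 ratio was 3.20 (3.10 to 3.31) in WT, 3.77 (3.55 to 3.97) in *Tspan12* KO cells and 3.38 (3.20 to 3.55) in *Ctnnb1* cKO. All members of the WT library and 10 of 12 in *Tspan12* KO held a UMI of it. The highest ratios that held in all 3 libraries belonged to *Ltbp4*, a binding protein of latent TGF-β in elastic fibres, with 330.0, 476 and 481 CPM in arterial and 13.3, 24.4 and 26.4 CPM in other ECs. *Vegfc*, a ligand for VEGFR3 and VEGFR2, stood at 484, 419 and 213 CPM in arterial cells and at 28.3, 26.2 and 14.5 CPM in other ECs, and *Fbln5*, encoding the elastic fibre protein fibulin-5, at 535, 413 and 268 CPM and 34.3, 27.4 and 19.4 CPM. The remaining genes of the 10 most raised across libraries were *Nebl*, *Fbln2*, *Pcsk5*, *Cxcl12*, *Hey1* and *Lama3*. For *Cxcl12*, the chemokine ligand of CXCR4, the level was 511 CPM in the WT library, 876 in that of *Tspan12* KO and 531 in that of *Ctnnb1* cKO in arterial cells and 54.8, 30.5 and 65.1 CPM in other ECs. In all 3 libraries at once, 105 of 9252 genes (1.13%) were 2-fold higher in arterial cells and 66 (0.713%) were lower.

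**Figure D2:**
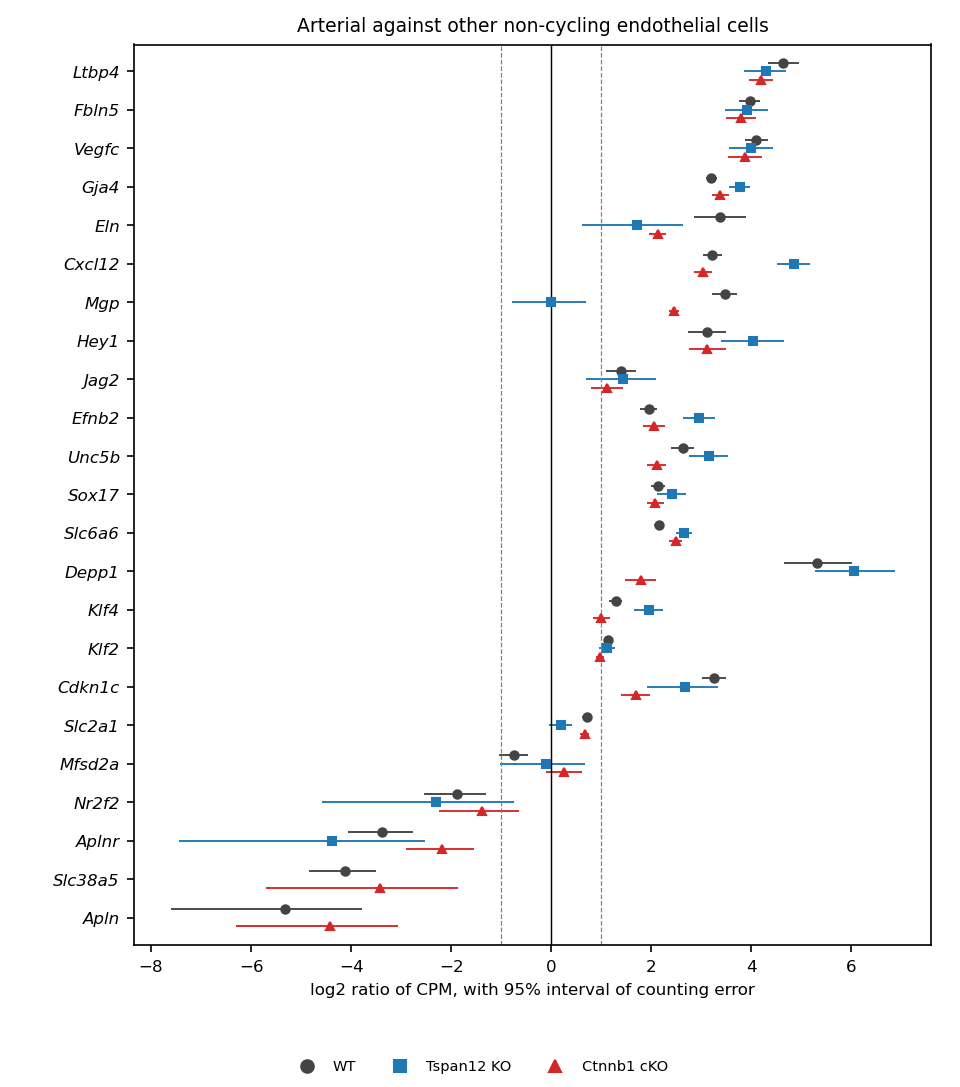
Log2 ratios of summed CPM in arterial against other non-cycling ECs for 23 genes (rows), with points for the 3 libraries, bars for 95% intervals of counting error and dashed lines at 2-fold. *Slc38a5* and *Apln* have no *Tspan12* KO point because they had 0 UMIs in the 12 arterial cells, and arterial genes lie on the right in all 3 libraries except *Mgp* in *Tspan12* KO, which lies at 0.00.

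Among Notch genes, *Hey1*, a transcriptional target, was at 125 CPM in the WT library, 209.5 in that of *Tspan12* KO and 144 in that of *Ctnnb1* cKO in arterial cells, with log2 ratios to other ECs of 3.11 (2.74 to 3.49), 4.03 (3.39 to 4.64) and 3.12 (2.76 to 3.49). The ligand genes *Jag2* and *Dll4* were at 131, 127 and 119 CPM and 215, 197 and 195 CPM, against 49.5, 46.9 and 55.1 CPM and 101, 96.4 and 109 CPM in other ECs. *Jag1*, a further ligand, had log2 ratios of 2.04, 1.56 and 0.78, the lowest in *Ctnnb1* cKO. The receptors *Notch1* and *Notch4* stayed below 2-fold or close to it, with log2 ratios of 0.89, 0.99 and 0.83 for *Notch1* and 1.16, 0.87 and 0.85 for *Notch4*. Of the 15 Notch pathway genes, 5, 3 and 2 of 12, 12 and 12 with enough UMIs were 2-fold higher, against 3.04%, 6.3% and 2.32% of all genes. *Mfng* in *Tspan12* KO was the one that was 2-fold lower, where 12.9% of all genes were. The ephrin ligand *Efnb2*, the arterial transcription factor *Sox17* and the netrin receptor *Unc5b* were raised in each library, with log2 ratios of 1.95, 2.96 and 2.06, of 2.14, 2.41 and 2.08, and of 2.63, 3.15 and 2.11.

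Some venous and tip cell genes were lower in arterial cells. Of 14 venous genes, 8 of 12 in WT, 8 of 12 in *Tspan12* KO cells and 5 of 12 in *Ctnnb1* cKO were 2-fold lower, against 3.46%, 12.9% and 2.07% of all genes. *Nr2f2*, encoding the vein-determining factor COUP-TFII, was at 26.6, 19.0 and 17.4 CPM in arterial and 98.4, 93.9 and 45.7 CPM in other ECs, and the apelin receptor gene *Aplnr* at 23.3, 12.7 and 23.2 CPM and 241, 266 and 106 CPM. *Slc38a5*, a glutamine transporter gene, was at 22.1, 0 and 3.48 CPM against 388, 43.3 and 37.3 CPM. The listed genes *Vwf* and *Vcam1* went the other way. *Vwf*, encoding von Willebrand factor, was at 303, 235 and 497 CPM in arterial cells and 104, 60.7 and 93.3 CPM in other ECs, and the adhesion molecule gene *Vcam1* at 68.7, 12.7 and 126 CPM and 6.52, 5.17 and 15.2 CPM, the *Tspan12* KO value resting on 2 UMIs. *Apln*, the tip cell ligand of the apelin receptor, was nearly absent from the members, with 3, 0 and 4 UMIs in all, against 134 CPM in other ECs of WT and 132 CPM in those of *Tspan12* KO. The 10 genes lowest across libraries also held *Odc1*, *Chst1*, *Trp53i11*, *Tgfbi* and the haemoglobin genes *Hba-a1*, *Hbb-bs* and *Hbb-bt*. Of 15 tip cell genes, those measured and 2-fold lower were 6 of 14, 5 of 13 and 6 of 14, whereas *Cxcr4*, the receptor for *Cxcl12*, was at 84.2, 139.7 and 90.5 CPM in arterial and 28.0, 49.5 and 48.7 CPM in other ECs.

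Against the 37, 30 and 137 tip-gated cells alone, *Gja4* showed log2 ratios of 6.87, 7.11 and 4.62 and *Cxcl12* of 6.88, 8.37 and 5.42. The median over the arterial genes outside the rule was 4.03, 4.26 and 3.74, where 7.58%, 9.41% and 8.27% of all genes with enough UMIs were 2-fold higher.

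Barrier and capillary genes were divided. The glucose transporter gene *Slc2a1* was at 1111 CPM in the WT library, 1067 in that of *Tspan12* KO and 1421 in that of *Ctnnb1* cKO for arterial cells, against 679, 934 and 895 CPM in other ECs, and *Cldn5*, encoding the tight junction protein claudin-5, at 4478, 2946 and 2173 CPM and 4071, 2191 and 1618 CPM. The lipid transporter gene *Mfsd2a* had log2 ratios of -0.75 (-1.05 to -0.47) in WT, -0.11 (-1.03 to 0.68) in *Tspan12* KO cells and 0.26 (-0.11 to 0.61) in *Ctnnb1* cKO. The transferrin receptor gene *Tfrc* was at 17.7, 6.35 and 6.96 CPM in arterial and 173, 47.9 and 18.9 CPM in other ECs, so the gap narrowed in the mutants with the level in other ECs. *Slco1a4*, an organic anion transporter gene, was raised in the arterial cells of each library, at 42.1, 209.5 and 111 CPM against 1.88, 44.0 and 38.1 CPM. Of 17 listed genes, those measured and 2-fold higher or lower were 1 and 8 in WT, 5 and 2 in *Tspan12* KO, and 1 and 2 in *Ctnnb1* cKO. Of all genes, 3.04%, 6.3% and 2.32% were 2-fold higher and 3.46%, 12.9% and 2.07% lower.

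Of 11 genes that respond to laminar flow, 4 of 10 measured in WT, 4 of 10 in *Tspan12* KO cells and 1 of 10 in *Ctnnb1* cKO were 2-fold higher in arterial cells, against 3.04%, 6.3% and 2.32% of all genes. *Klf2* was at 2385 CPM in the WT library, 2114 in that of *Tspan12* KO and 1679.9 in that of *Ctnnb1* cKO in arterial cells and *Klf4* at 709, 686 and 405 CPM, against 1086, 978 and 851 CPM and 291, 177 and 202 CPM in other ECs. Both encode flow-induced transcription factors, and their log2 ratios were 1.13, 1.11 and 0.98 for *Klf2* in WT, *Tspan12* KO and *Ctnnb1* cKO, and 1.29 and 1.96 for *Klf4* in WT and *Tspan12* KO. The inhibitory SMAD genes *Smad6* and *Smad7* and the ligand gene *Tgfb2* were 2-fold higher in every library, with *Smad6* at 68.7, 88.9 and 102 CPM and 12.4, 23.3 and 28.3 CPM. *Smad1*, a signal transducer of BMP receptors, was lower, at 111, 95.2 and 101 CPM against 234, 154 and 226 CPM. *Cdkn1c*, encoding the cell cycle inhibitor p57, was at 297 CPM in the WT library, 133 in that of *Tspan12* KO and 155 in that of *Ctnnb1* cKO in arterial cells and at 31.2, 21.0 and 48.1 CPM in other ECs, and it was the one of 6 cell cycle inhibitor genes that was 2-fold higher in all 3 libraries. Of 19 matrix genes, *Lamb2*, *Col18a1*, *Eln*, *Fbln2* and *Fbln5* were 2-fold higher in each library, while *Col4a1*, encoding the main basement membrane collagen, stayed within 2-fold at 2558, 2933 and 3491 CPM against 1742, 2167 and 4064 CPM.

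The arterial cells also differed among themselves. They were divided at the median of the summed rule markers, which is a division by the rule's own measure and is given as a description. The deepest WT members, of 106463, 93471, 89792 and 81746 UMIs, all lay below the median, and the part of depth was not tested. In WT, the 16 cells above the median held *Fbln5* at 1328 CPM and the 16 cells below it at 159.9. *Mgp*, encoding matrix Gla protein, an inhibitor of calcification in arterial walls, was at 931 and 1.63 CPM, and *Eln*, encoding elastin, at 210.3 and 8.16. The values of both genes below the median rest on few UMIs. *Ltbp4* was at 679 and 165 CPM, and *Fbln2* at 314 and 71.8. *Gja4* was nearly level in these sums, with 1514 CPM above and 1519 below the median. However, 1 cell below the median, of 81746 UMIs, had the highest *Gja4* level of the WT members, 46.2 per 10,000. The lower sum leans on that cell. *Mfsd2a* was at 24.1 CPM above and 162 below, and *Plvap*, encoding the diaphragm protein of fenestrae and caveolae, at 51.7 and 186 CPM.

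In *Ctnnb1* cKO, the 109 cells above the median held more *Fbln5* (498 against 124 CPM), *Ltbp4* (812 against 275), *Mgp* (2243 against 884) and *Vegfc* (395 against 99.9), and less *Plvap* (42.3 against 285) and *Aplnr* (3.02 against 35.8). *Mfsd2a* differed little there, at 75.5 and 92.3 CPM. Below the median, *Eln* was at 392 CPM and *Mgp* at 884 CPM, against 8.16 and 1.63 CPM in WT, which rest on few UMIs. Each library was split at its own median, 21.0 per 10,000 in *Ctnnb1* cKO and 14.2 in WT. The 2 lower groups therefore span unlike marker levels. In *Tspan12* KO, with 6 cells on each side, *Ltbp4* was at 948 against 59.8 CPM, and *Plvap*, with 176 against 59.8 CPM, ran the other way.

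**Figure D3:**
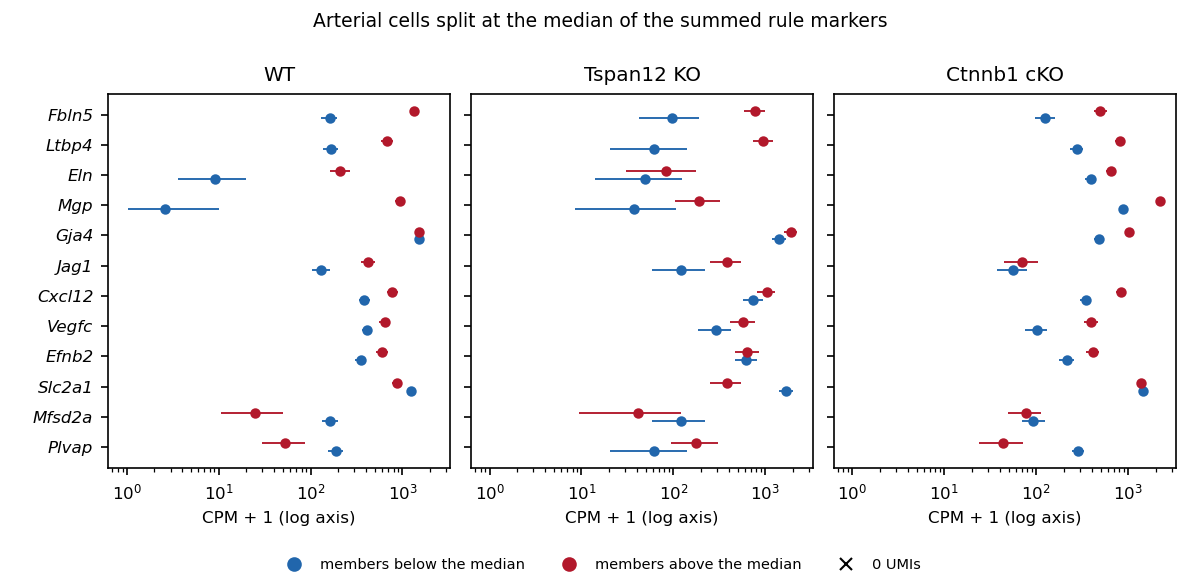
Summed CPM plus 1 (log axis) of 12 genes in the arterial cells above (red) and below (blue) the median of the summed rule markers, 1 panel per library, with bars for 95% Poisson intervals. The red points lie right of the blue ones for *Fbln5* and *Ltbp4* in all 3 panels, and for *Plvap* they lie left in WT and *Ctnnb1* cKO.

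For the knockout comparisons, the targeted genes came first. *Tspan12* was at 68.7 CPM (52.6 to 88.0), 69.8 CPM (34.9 to 125) and 46.4 CPM (33.2 to 63.2) in arterial cells of WT, *Tspan12* KO and *Ctnnb1* cKO, and *Ctnnb1* at 642 CPM (591 to 697), 616 CPM (499 to 751) and 580.1 CPM (530.3 to 633). Neither was lowered in the library named for it beyond counting error. Reads of 3′ libraries come from the transcript end and need not cover a deleted exon, and which exons each allele removes was not given in the sources used here, so this is no check of the deletion. The libraries are therefore called by their labels. Both knockouts were set against the same 32 WT cells, and the pair of comparisons is not independent.

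In *Tspan12* KO arterial cells, 111 of 4026 genes were 2-fold higher than in WT (2.76%) and 219 lower (5.44%), together 8.2%, from 12 cells. *Aqp1*, encoding the water channel aquaporin-1, was at 29.9 CPM (19.7 to 43.5) in WT and 495 CPM (391 to 618) in *Tspan12* KO, present in 9 of 32 and 8 of 12 cells. The log2 ratio was 4.05 (3.40 to 4.74), and in other ECs it was 4.53 (4.02 to 5.08). Without the deepest arterial cell of each library the arterial ratio was 2.35. *Six3os1*, a long non-coding RNA beside *Six3*, was at 12.2 CPM (6.08 to 21.8) and 260.3 CPM (187 to 353), a log2 ratio of 4.42 (3.43 to 5.53) against 3.91 (3.65 to 4.18) in other ECs. The *Six3os1* ratio was 3.26 without the deepest cells. Both genes were thus higher in other ECs too. *Tgfb2* was at 258 CPM (226 to 293) in WT and 946 CPM (800.2 to 1111) in *Tspan12* KO, in 11 of 12 cells. Its log2 ratios were 1.87 (1.57 to 2.18) in arterial and 1.24 (1.10 to 1.38) in other ECs. Without the deepest cells its arterial ratio was 1.49. Over the processing alternatives the arterial *Tgfb2* ratio ran from 0.58 to 1.97, so it fell short of 2-fold in some alternative. Those of *Aqp1* and *Six3os1* ran from 1.97 to 4.28 and from 1.995 to 4.71.

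Of 15 β-catenin target genes, 7 had enough UMIs in the *Tspan12* KO and WT arterial cells, 3 were 2-fold higher (*Lef1*, *Apcdd1* and *Tnfrsf19*) and 1 was lower (*Ppard*). Of all genes, 2.76% were higher and 5.44% lower. *Apcdd1*, an inhibitor of Wnt signalling induced by it, was at 111 CPM (90.1 to 135) in WT and 387 CPM (296 to 497) in *Tspan12* KO, with a log2 ratio of 1.81 (1.32 to 2.28) in arterial and 0.26 (0.16 to 0.37) in other ECs. *Lef1*, a transcription factor partner of β-catenin, had log2 ratios of 1.11 (0.69 to 1.53) and 0.40 (0.31 to 0.48), but without the deepest arterial cell of each library the arterial value was -0.73. The *Apcdd1* ratio without those cells was 0.68, so neither gene was 2-fold higher without them.

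Most arterial identity genes lay within 2-fold of WT in *Tspan12* KO. Of 15 measured outside the rule, *Depp1* was 2-fold higher and *Mgp* 2-fold lower, against 2.76% and 5.44% of all genes. The log2 ratios of *Gja4*, *Efnb2*, *Hey1*, *Sox17*, *Cxcl12* and *Vegfc* were 0.11, 0.55, 0.74, 0.14, 0.78 and -0.21. Without the deepest cells *Hey1* and *Cxcl12* were past 2-fold, at 1.07 and 1.06. These were the highest values over the processing alternatives, and the lowest were -0.13 and -0.22. *Plvap*, which was at 100.2 CPM in other ECs of WT and 293 CPM in those of *Tspan12* KO, was at 143 CPM (119 to 169.7) and 114 CPM (67.7 to 181) in arterial cells. Its arterial log2 ratio of -0.32 was not firm and ran from -0.53 to 1.66 over the processing alternatives. *Itm2a*, a membrane protein gene of brain and retinal ECs, was at 1043 and 338 CPM in other ECs and at 804 and 705 CPM in arterial cells, where the log2 ratio was -0.19 and, without the deepest cells, -0.57. Whether arterial and other ECs differed in these responses was not tested. Among the lowest genes were the adhesion molecule gene *Icam1* and the chemokine gene *Cxcl1*, with log2 ratios of -2.99 and -3.61, and of -1.21 and -3.28 in other ECs, resting on 2 and 1 UMIs in *Tspan12* KO. The cell division genes *Birc5*, *Cenpa* and *Ube2c* were also among the lowest. Their log2 ratios of CPM plus 5 were -3.06, -2.90 and -2.78, and -0.05, -0.04 and -0.46 in other ECs.

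**Figure D4:**
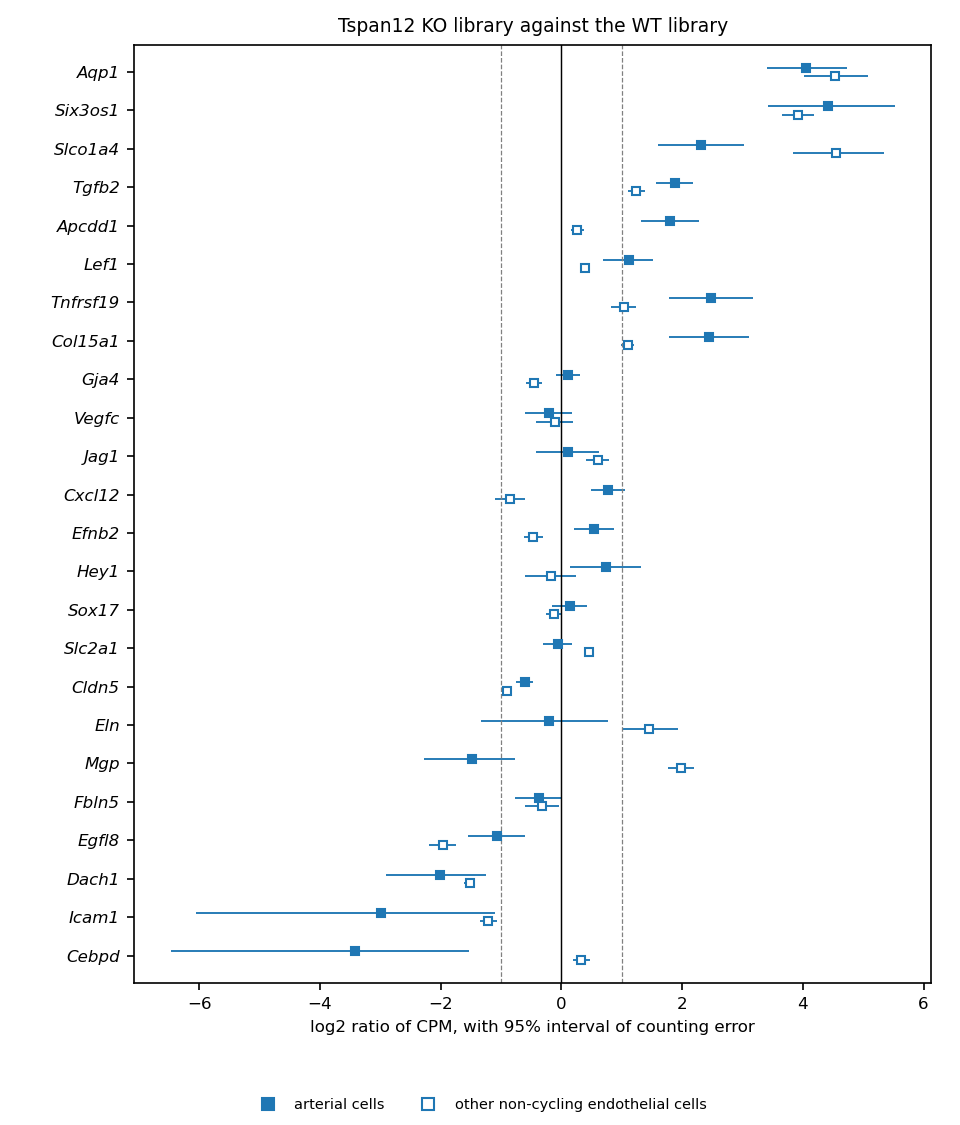
Log2 ratios of CPM in the *Tspan12* KO against the WT library for 24 genes, in arterial cells (filled squares) and other non-cycling ECs (open squares), with 95% intervals of counting error and dashed lines at 2-fold. *Aqp1* and *Six3os1* lie right of 2-fold in both cell groups, and the intervals of the 12 arterial cells are the wider ones.

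In *Ctnnb1* cKO arterial cells, 352 of 5694 genes were 2-fold higher than in WT (6.18%) and 441 lower (7.74%), together 13.9%. Some arterial genes were lower. *Gja4* was at 1517 CPM (1438 to 1599.7) in WT and 687 CPM (633 to 744) in *Ctnnb1* cKO, a log2 ratio of -1.14 that in other ECs was -1.32. *Vegfc* was at 484 CPM (439.6 to 532) and 213 CPM (184 to 247), a log2 ratio of -1.18 (-1.44 to -0.93) against -0.96 (-1.29 to -0.64). *Jag1* was at 223 CPM (193 to 256) and 60.3 CPM (45.1 to 79.1), a log2 ratio of -1.88 (-2.35 to -1.44), while in other ECs it was -0.62 (-0.83 to -0.40), with intervals of counting error that stood apart. Whether the response differed between the cell groups was not tested. *Egfl8* and *Dach1*, the latter a transcription factor gene with a role in arterial growth, had log2 ratios of -3.02 (-3.44 to -2.63) and -3.82 (-4.51 to -3.19), next to -3.35 (-3.65 to -3.06) and -2.91 (-3.03 to -2.78) in other ECs.

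Other arterial genes lay within 2-fold of their WT level. The log2 ratio was 0.20 (-0.18 to 0.58) for *Hey1*, 0.06 (-0.13 to 0.25) for *Cxcl12*, -0.57 (-0.81 to -0.34) for *Efnb2* and -0.61 (-0.80 to -0.43) for *Sox17*. Of 15 measured genes outside the rule, 3 were 2-fold higher (*Edn1*, *Mgp* and *Eln*) and 2 lower (*Gja4* and *Vegfc*), with a median log2 ratio of 0.06. Of all genes, 6.18% were higher and 7.74% lower. Over the processing alternatives *Gja4* ran from -1.17 to -0.73, *Vegfc* from -1.40 to -0.96 and *Mgp* from 0.84 to 2.32. Each of these fell short of 2-fold in some alternative. *Fbln5*, at -0.997 and not counted as lower, ran from -2.09 to -0.84. *Edn1*, encoding the vasoconstrictor endothelin-1, was at 50.9 CPM (37.3 to 68.0) in WT and 425 CPM (382 to 470.4) in *Ctnnb1* cKO. The rule markers *Bmx*, *Sema3g*, *Dkk2* and *Tmem100* were also 2-fold higher in *Ctnnb1* cKO. The rule itself sets the lowest level a member can have, and not equally for deep and shallow cells. With at least 2 markers detected, a shallow cell can enter only at a summed level above the limit. The median depth was 3059 UMIs in *Ctnnb1* cKO members and 15078.5 in WT members. The part of this selection in the differences from WT was not tested.

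Of 18 matrix genes measured, 4 were 2-fold higher in *Ctnnb1* cKO arterial cells (*Col15a1*, *Eln*, *Fbln2* and *Mgp*) and 1 lower (*Fn1*), against 6.18% and 7.74% of all genes. *Eln* was at 73.1 CPM (56.5 to 93.0) and 492 CPM (446 to 541), found in 10 of 32 and 84 of 219 cells, and *Mgp* at 300.1 CPM (265 to 338) and 1406 CPM (1328 to 1488). The log2 ratios were 2.75 (2.37 to 3.15) and 2.23 (2.04 to 2.42) in arterial cells, and 3.99 (3.63 to 4.38) and 3.24 (3.05 to 3.44) in other ECs. *Fbln2*, encoding fibulin-2, was at 149.5 CPM (125 to 177) and 448 CPM (404 to 495), and *Col15a1*, encoding a basement membrane collagen, at 45.4 CPM (32.6 to 61.6) and 369 CPM (329 to 412). *Fn1*, encoding fibronectin, went down from 839 CPM (781 to 901) to 236 CPM (204 to 270.2), and in other ECs from 733 to 162 CPM. The elastic fibre genes *Fbln5* and *Ltbp4* went different ways, *Fbln5* from 535 CPM in WT to 268 CPM and *Ltbp4* from 330.0 to 481 CPM.

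*Cldn5* was at 4478 CPM (4342 to 4619) in WT and 2173 CPM (2076 to 2274) in *Ctnnb1* cKO arterial cells. The log2 ratio was -1.04 (-1.12 to -0.96), and in other ECs it was -1.33 (-1.36 to -1.30). It was 1 of 3 tight junction genes of 7 measured that were 2-fold lower, with *Lsr* and *Jam2*, against 7.74% of all genes. The arterial *Cldn5* ratio ran from -1.31 to -0.97 over the processing alternatives. *Itm2a* was at 804 and 154 CPM, while *Slc2a1* was at 1111 and 1421 CPM. *Cav1*, encoding caveolin-1, was at 317 CPM (281 to 356) and 110.2 CPM (89.2 to 135) in arterial cells, and at 122 and 93.2 CPM in other ECs. *Plvap*, which was at 100.2 and 339 CPM in other ECs, was at 143 CPM (119 to 169.7) and 191 CPM (163 to 223) in arterial cells, so the arterial level was above that of other ECs in WT and below it in *Ctnnb1* cKO. The arterial log2 ratio of *Plvap* to WT, 0.42, ran from 0.09 to 1.61 over the processing alternatives. Among β-catenin targets none of 9 measured was 2-fold different in arterial cells, where 13.9% of all genes were. *Apcdd1* had log2 ratios of 0.41 (0.02 to 0.80) in arterial and -1.09 (-1.22 to -0.97) in other ECs. *Aqp1* was at 805 CPM (746 to 867), a log2 ratio to WT of 4.75 (4.20 to 5.36) and of 5.39 (4.89 to 5.93) in other ECs, and *Six3*, a transcription factor gene of eye development, went from 17.7 CPM (10.1 to 28.8) to 456 CPM (412 to 503).

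**Figure D5:**
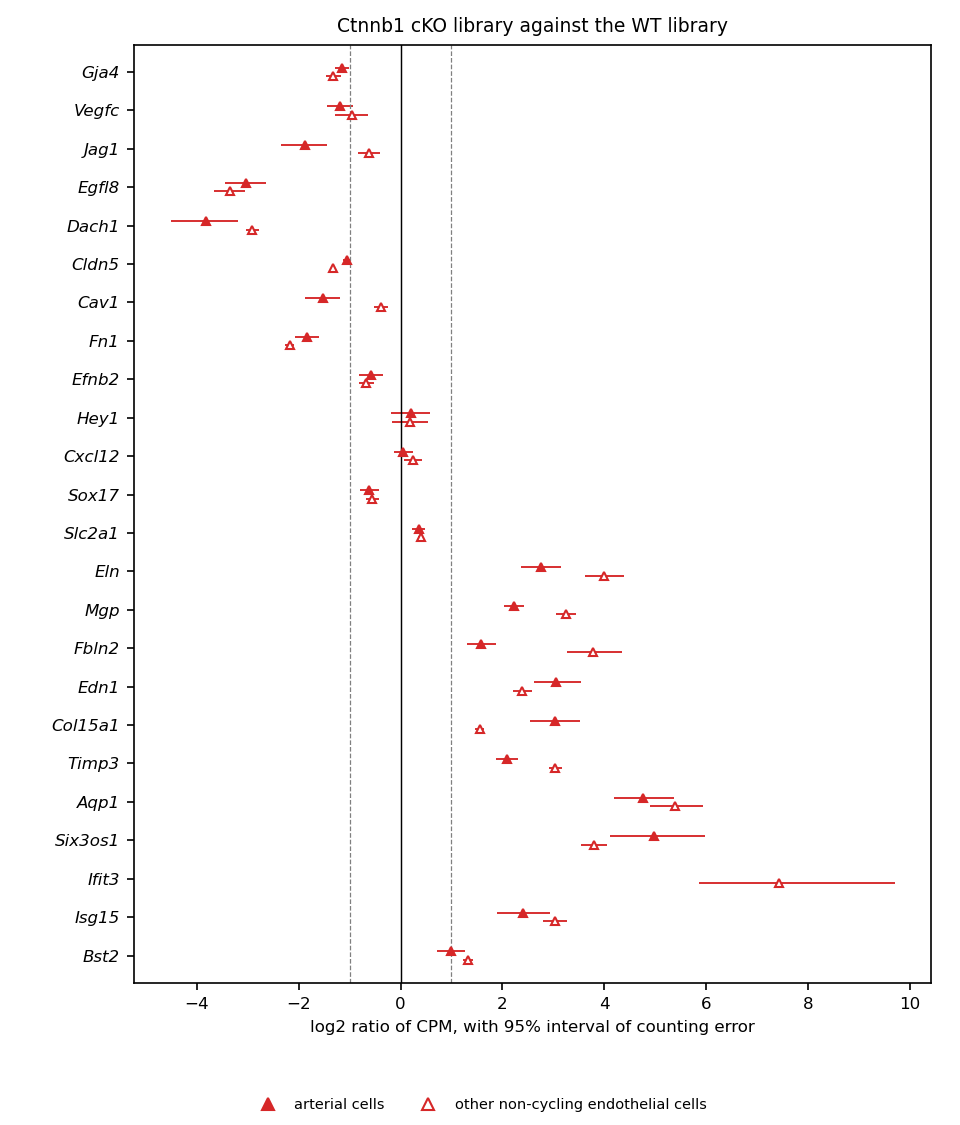
Log2 ratios of CPM in the *Ctnnb1* cKO against the WT library for 24 genes, in arterial cells (filled triangles) and other non-cycling ECs (open triangles), with 95% intervals of counting error and dashed lines at 2-fold. *Ifit3* has no arterial point because WT arterial cells held 0 UMIs, *Jag1* and *Cav1* lie further left in arterial than in other ECs, and *Mgp*, *Eln* and *Fbln2* lie right in both.

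Interferon-stimulated genes were higher in *Ctnnb1* cKO arterial cells. Of 12 listed, all but *Usp18* had 50 UMIs over both libraries, several of them through the *Ctnnb1* cKO cells alone, so the counts are a description. Of these 11, 9 were 2-fold higher and none lower, against 6.18% and 7.74% of all genes, with a median log2 ratio of 2.53. In other ECs 12 of 12 were higher, with a median of 2.54, where 4.4% of all genes were. *Isg15*, a ubiquitin-like protein gene, was at 43.2 CPM in the WT library, 19.0 in that of *Tspan12* KO and 227 in that of *Ctnnb1* cKO. *Ifit3* had 0 UMIs in WT, which allows up to 3.32 CPM, and was at 73.1 CPM (56.2 to 93.5) in *Ctnnb1* cKO, in 26 of 219 cells. *Cd74* and *H2-Ab1*, of antigen presentation by MHC class II, were at 152 and 98.6 CPM in *Ctnnb1* cKO arterial cells and at 2.21 and 2.21 CPM, from 2 UMIs each, in WT. Microglia markers moved with these genes, at 118 CPM summed over 8 markers in WT arterial cells, 133 in *Tspan12* KO cells and 543 in *Ctnnb1* cKO, and at 122, 113 and 549 CPM in other ECs. Their part in the result was not tested.

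The promoters of the interferon-stimulated genes are shown because the genes moved together. Interferon-activated factors bind a repeat of GAAA, here searched on both strands as GAAA, any 2 bases and GAAA again, in RefSeq promoter windows of build GRCm38.p6, which lie mostly before the start of the gene. Of 12 genes 9 were in the table, and 6 of these 9 promoters held it (*Bst2*, *Ifit1*, *Ifit3*, *Ifitm3*, *Isg15* and *Rsad2*), against 3.44% of all 32851 promoters and 2 of 18 promoters of the arterial genes outside the rule. The promoter of *Ifit3* (chr19:34583279-34583578, plus strand) held 2 matches and that of *Isg15* (chr4:156200769-156201068, minus strand) 3 overlapping ones, printed in capitals, 5′ to 3′ on the strand of the gene.
Ifit3: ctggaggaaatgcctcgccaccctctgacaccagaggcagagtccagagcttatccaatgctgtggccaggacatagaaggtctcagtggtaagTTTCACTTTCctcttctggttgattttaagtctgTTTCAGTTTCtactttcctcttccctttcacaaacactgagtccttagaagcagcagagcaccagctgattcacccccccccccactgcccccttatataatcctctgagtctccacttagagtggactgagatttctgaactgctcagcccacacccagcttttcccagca
Isg15: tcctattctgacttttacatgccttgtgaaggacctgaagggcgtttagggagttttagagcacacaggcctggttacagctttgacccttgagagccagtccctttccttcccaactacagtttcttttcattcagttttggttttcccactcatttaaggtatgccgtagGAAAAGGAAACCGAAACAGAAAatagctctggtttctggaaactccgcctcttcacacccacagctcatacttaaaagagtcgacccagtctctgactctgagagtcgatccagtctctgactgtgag
The core letters of the Notch effector RBPJ, TGGGAA on either strand, were in 4 of 18 promoters (22.2%) of the 14 arterial genes outside the rule that were in the table, and in 25.6% of all promoters. A match in these windows is a run of letters and shows no binding.

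Transcripts of other cell types in the members varied by library. Mural cell markers, of pericytes and smooth muscle that wrap arteries, summed to 6.64 CPM in WT, 502 in *Tspan12* KO cells and 249 in *Ctnnb1* cKO arterial cells, and to 95.7, 491 and 164 CPM in other ECs. *Rgs5*, the most abundant of them, was among the 10 highest genes of both knockout comparisons, with 62 UMIs in 2 of 12 *Tspan12* KO cells and 169 UMIs in 16 of 219 *Ctnnb1* cKO cells. Leaving out the 2 and 7 members with at least 5 mural UMIs per 10,000 removed every *Rgs5* UMI from *Tspan12* KO and brought the log2 ratio in *Ctnnb1* cKO from 6.47 to 2.48. The *Aqp1* ratios without these cells were 4.28 in *Tspan12* KO cells and 4.81 in *Ctnnb1* cKO, and those of *Col15a1* 2.66 and 3.07, next to 2.45 and 3.02 with them. Without the deepest cells, *Col15a1* was at 1.33 in *Tspan12* KO. Rod markers were at 161, 292 and 115 CPM, neuron markers at 128, 286 and 76.6, astrocyte markers at 24.4, 133 and 2.32, and erythrocyte markers at 58.7, 63.5 and 154. Müller glia markers were higher in arterial than in other ECs, at 915, 1009.5 and 473 against 248, 233 and 142 CPM, and most of this was *Glul*, encoding glutamine synthetase, with 870.5, 927 and 436 CPM in arterial cells. *Aqp4*, another gene of the Müller glia list, had 0 UMIs in arterial cells of every library, and its level in other cells is not given here. The part of all these transcripts in the differences was not tested.

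*Kif11*, a mitotic kinesin gene and the gene the study centred on, gave 7, 1 and 2 UMIs in all arterial cells of WT, *Tspan12* KO and *Ctnnb1* cKO, too few for a comparison at this depth. The levels were 7.75, 6.35 and 2.32 CPM, and 7.41, 8.02 and 4.31 CPM in other ECs. Ferroptosis genes were within 2-fold of WT except *Lpcat3*, at 95.2 CPM in the WT library, 38.1 in that of *Tspan12* KO and 42.9 in that of *Ctnnb1* cKO, among 7 and 7 of 12 listed genes with enough UMIs in the *Tspan12* KO and *Ctnnb1* cKO comparisons. Glycolysis and hypoxia genes were 2-fold lower than in WT for 3 of 8 in *Tspan12* KO cells and 1 of 9 in *Ctnnb1* cKO. Immediate early genes, which can respond to cell isolation, were 2-fold lower for 2 and 1 of 11 and none was higher. Of all genes, 5.44% and 7.74% were 2-fold lower.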

How the data were processed

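Retinal cells of 3 libraries, 1 per genotype, were measured with droplet 3′ RNA sequencing. The authors aligned the reads and deposited, for each library, a filtered table of raw counts (UMIs per gene and cell, not normalized). The file headers name Cell Ranger 8.0.1 and the labels GRCm39, while the study's methods name another release and build, so no gene positions were taken from the files.

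A minimum of 1000 UMIs and a maximum mitochondrial share of 15% left 9378 of 9951 barcodes in WT, 11585 of 14426 in *Tspan12* KO and 8121 of 9151 in *Ctnnb1* cKO. The study's own limit was laxer, and the lowest barcode in the files held 500 UMIs. ECs had at least 10 UMIs per 10,000 of the EC genes of the gate with 3 or more detected and fewer than 5 per 10,000 of microglial genes, and non-cycling ECs fewer than 3 per 10,000 of cycling genes. Within each library, the counts of all cells in a class were added up and expressed as CPM. Log2 ratios are of CPM, with exact conditional binomial intervals, and exact Poisson intervals are given for levels. A gene counts as higher or lower where CPM plus a pseudocount of 5 differs by 2-fold or more and 50 UMIs were found over both groups. With 1 library per group no test across samples was run, and cells are not replicates. Genes named are the rule markers, members of gene lists, the 10 highest and lowest of each comparison and *Kif11*. The members and the lists were chosen with earlier results of these data known.

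Alternatives were thinning to 2000 UMIs, other gates, removal of cells with the highest doublet scores (Scrublet in scanpy 1.11.5) or with mural markers, the mean of each cell's CPM, TMM factors (edgeR 4.0.16 in R 4.3.3), pseudocounts of 1 and 20 CPM, and minimums of 1 and 200 UMIs per gene. The removal took 704, 1074 and 528 cells by score, 0, 1 and 12 of them arterial, because the automatic doublet call marked 0, 0 and 330 cells and so did not work in 2 libraries. Python 3.11.15, numpy 2.4.6, pandas 2.3.3 and scipy 1.17.1 were used, and the scripts were tested on simulated data. Some genes the rule names are not reported here.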

Additional observations from a re-analysis of the deposited data

Results flagged for a closer look

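In *Tspan12* KO against WT, *Mgp* had a log2 ratio of CPM plus 5 of -1.43 in arterial cells and of 1.81 in other ECs, and *Slco1c1*, a barrier transporter gene of thyroid hormone, of 1.30 and -1.12. Both were singled out because the directions were opposite in the 2 classes of cells. The differences were not tested, since each genotype was 1 library. All 23 UMIs of *Slco1c1* in the *Tspan12* KO arterial cells lay in 1 of 12 cells, and those of *Mgp* in 3 of 12.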

How the results depend on the processing

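The order of the arterial shares was kept in the share alternatives. In WT (8.08%) the share was 4.89% on thinned cells, 4.55% without *Stmn2* in the gate and 4.80% at 10 per 10,000, and in *Ctnnb1* cKO (12.9%) it was 9.52%, 10.8% and 10.4% under these, 10.5% without *Tmem100* and 8.60% with at least 3 markers. The median ratio of the arterial genes outside the rule stayed at 2.05 or more and moved past 1.5-fold only on thinned cells in *Tspan12* KO (2.34). The number of genes past 2-fold in *Tspan12* KO (330) was 147 on thinned cells, 135 without *Stmn2*, 181 at 10 per 10,000, 788 by the mean of each cell's CPM, 183 with a pseudocount of 20, 2958 at 1 UMI per gene and 43 at 200 UMIs, and in *Ctnnb1* cKO (793) it was 507 on thinned cells, 499 with the pseudocount of 20, 1907 at 1 UMI and 265 at 200 UMIs. These counts thus depend on the gate and the minimum, and with 12 cells the *Tspan12* KO values are the least firm. Of 937 values of named genes under an alternative, 717 lay inside the counting interval, 212 moved beyond it and 8 reversed. A change of sign was counted as reversed only where the main ratio was past 2-fold. The 8 reversed values, all in *Tspan12* KO against WT, were *Six3* (-1.76 thinned, -0.34 at 10 per 10,000), *Slco1a4* (-0.85 under each of the same alternatives), *Slco1c1* (-0.85 thinned, -2.25 by the mean of cells) and *Lef1* (-0.83 at 10 per 10,000, -0.73 without the deepest cell), and the cause was not tested. Some smaller ratios also changed sign, among them *Edn1* in *Tspan12* KO (0.90, lowest -1.27) and *Slco1c1* in *Ctnnb1* cKO (-0.48, highest 0.81). Of 40 ratios past 2-fold, 36 kept their direction in all alternatives and 24 stayed past 2-fold. Leaving out the deepest arterial cell, or the cells with a barcode shared between libraries, was chosen after seeing the data, and the latter moved none of these values. No paired analysis was possible because each genotype was 1 library.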
